A study of Mus musculus with 15 samples.

Results

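The genes of cholesterol and fatty acid synthesis were described in nuclear RNA of mouse heart muscle, in libraries labelled as Pgr knockout or wild type. Pgr is the gene of the progesterone receptor, which binds DNA once progesterone has bound it. A list of 33 gene symbols was looked up in the smaller of the deposited count tables, whose genes average 10 counts or more, and 32 of them are among its 16610 genes. They fall into a sterol arm of 16 enzymes, 5 regulators and a fatty acid arm of 11 enzymes. Fdps, the farnesyl diphosphate synthase of the sterol arm, is the symbol not in that table; it had 2 to 21 reads per library and is not described further.

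RNA came from nuclei of ventricular muscle that had been sorted for Pcm1, a centriolar satellite protein used to mark cardiomyocyte nuclei, and it was made into ribosomal-RNA-depleted libraries with a kit that keeps the strand. The 15 libraries are 4 labelled Pgr_KO female, 4 labelled Pgr_KO male, 3 labelled Pgr_WT female and 4 labelled Pgr_WT male. They are called KO-labelled and WT-labelled females and males below, and values for a group are listed in the order of its replicate numbers. The labels name no treatment, strain background or Pgr allele, they leave the "3-6" before the tissue name unexplained, which may or may not be an age, and none says that replicates are separate animals, so p-values measure only the spread between these samples.

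Cells make cholesterol from acetyl-CoA through mevalonate, squalene and lanosterol, and make fatty acids from the same acetyl-CoA through malonyl-CoA, with desaturases and elongases shaping the chains. Both routes are driven by SREBP transcription factors, which the escort protein SCAP carries to the Golgi when membranes are low in sterol and which INSIG proteins hold back when sterol is ample. The heart makes little fatty acid for storage and takes most of its fuel from the blood, and in cardiac muscle malonyl-CoA is best known as the brake on entry of fatty acids into mitochondria.

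Libraries stood apart from their labels in several ways that touch every comparison. Pgr reads ran against the genotype labels: 8.69 to 12.5 CPM in KO-labelled females and 6.10 to 7.15 CPM in KO-labelled males, against 0 to 0.267 CPM in WT-labelled females and 0 to 0.166 CPM in WT-labelled males (CPM, counts divided by the scaled size of the library). Each direction below is therefore that of the label. Female and male libraries carried the transcripts of their labelled sex, but 3 also held reads of the other sex. KO-labelled female replicate 2 and WT-labelled female replicate 2 each had 15.5 CPM summed over 4 Y-linked genes, against 0.226 to 1.28 CPM in the other female libraries, and WT-labelled male replicate 2 had 54.2 CPM of Xist, against 0.335 to 2.64 CPM in the other male libraries. Each library held between 24.4 and 139.4 M counts, a depth at which a count of 3 equals 0.0219 to 0.117 CPM. Cardiomyocyte markers such as Ttn and Ryr2 were abundant in every library, with 8 genes summing to 43692 to 74047 CPM. Markers of other cells varied widely: the mean log2 CPM of endothelial, fibroblast and mural genes, called the marker level below, was 4.76 to 5.58 in 6 libraries and 1.78 to 3.25 in the other 9. The 6 are replicates 1 and 2 of both KO-labelled groups and replicate 1 of both WT-labelled groups, so each label group holds both kinds. In bulk nuclei fewer cells of a type and less RNA per cell cannot be told apart.

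Levels of the members were compared with each other as CPM per kilobase (kb) of gene body, because the deposited counts cover whole genes, introns included. Acacb (ENSMUSG00000042010, chr5:114146535-114250761, plus strand), whose product makes malonyl-CoA at the mitochondrial surface, had the highest level per kb, 3.72 ± 0.820 CPM per kb (SD, n = 15). It alone supplied 49.3 to 69.9% of the summed CPM of the fatty acid arm in the 15 libraries. That share is not divided by gene length, and the Acacb gene body spans 104 kb. Next in level per kb came Hsd17b7, a ketosteroid reductase of late sterol synthesis that also reduces estrone to estradiol, at 1.78 ± 0.576 CPM per kb. Srebf1, the gene of SREBP-1, stood at 1.01 ± 0.119 CPM per kb, above Insig2 at 0.887 ± 0.0813 and Hmgcs1, the HMG-CoA synthase at the entry of the mevalonate route, at 0.870 ± 0.114 CPM per kb. The lowest levels per kb were those of Elovl6, an elongase of saturated chains, at 0.0170 ± 0.0146, of Sqle, the squalene epoxidase, at 0.0180 ± 0.0108, and of Fads2, a desaturase of polyunsaturated chains, at 0.0469 ± 0.0472 CPM per kb. These means pool libraries that differed widely. The highest library was 14.9 times the lowest for Elovl6, 9.14 times for Sqle and 26.4 times for Fads2. Of the 31 pairs of neighbours in the order of level per kb, 7 had means that differed by more than the larger of the pair's SDs. The other 24 differed by less than that spread between libraries, and whether their means differ was not tested. Sqle rested on few reads, 3 to 35 per library, and its values carry the counting error of such numbers.

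**Figure D1:**
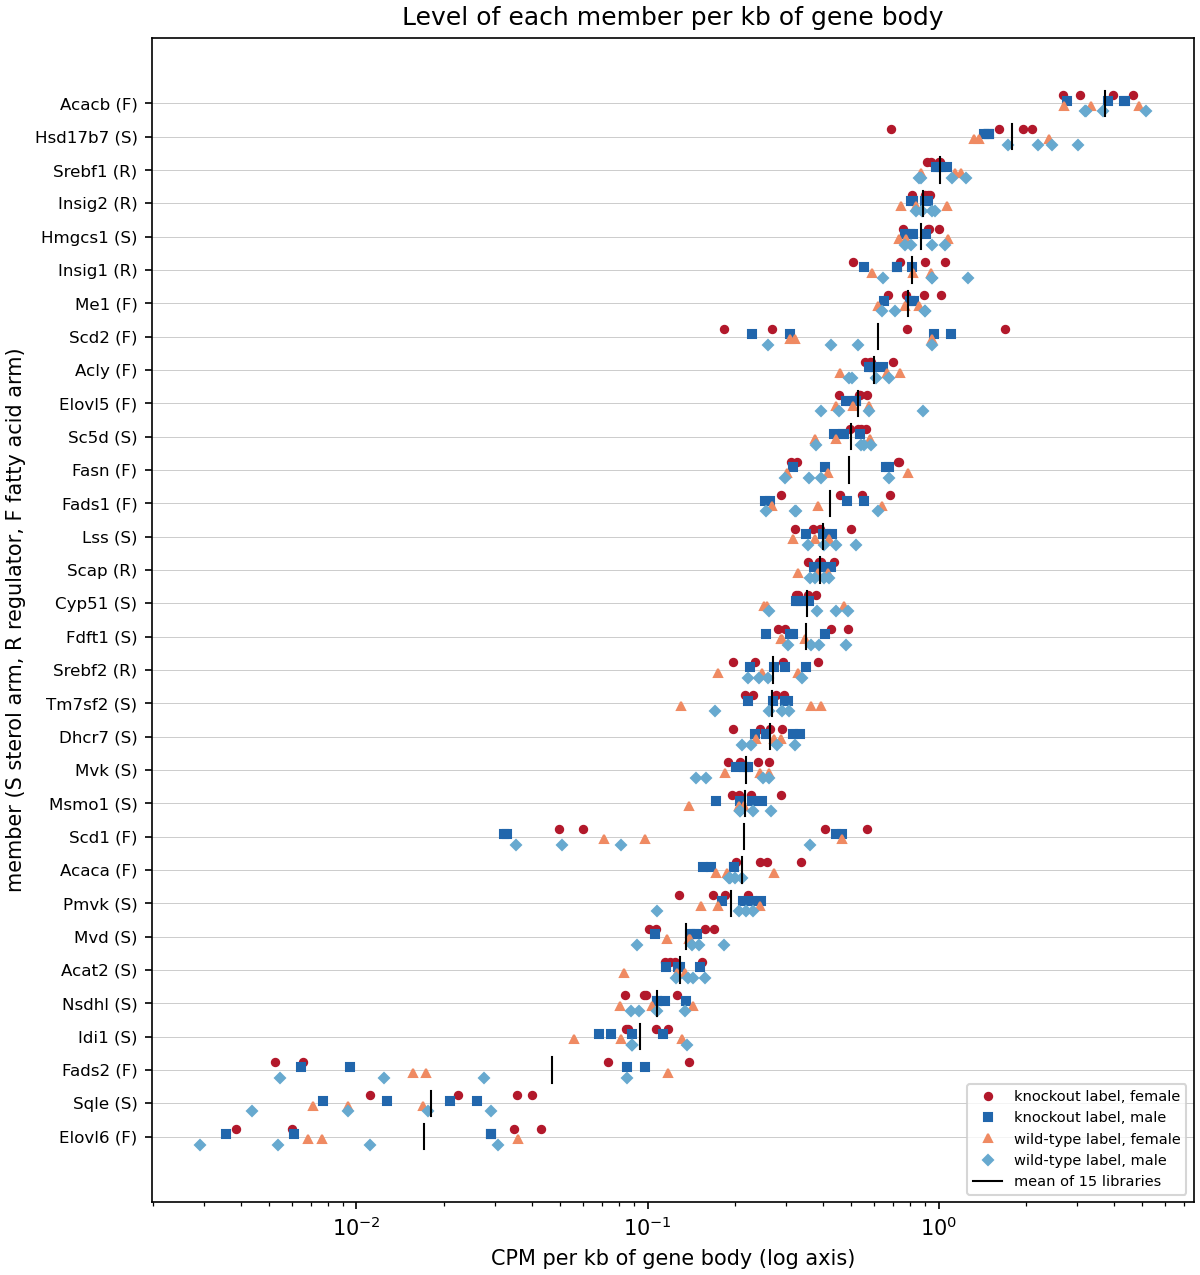
Level of each of the 32 members in CPM per kb of gene body (log axis), 1 point per library, with the mean of the 15 libraries as a black line; libraries labelled KO are drawn above those labelled WT. By the mean of the 15 libraries Acacb lies highest at 3.72 CPM per kb and Elovl6 lowest at 0.0170 CPM per kb. The points of Scd1, Fads2, Elovl6 and Scd2 spread the most.

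Overlapping genes bear on some of these levels. Tm7sf2, the sterol reductase that follows lanosterol demethylation, shares its strand with Vps51, a gene of mean count 445. Reads in the shared part could be left uncounted or be assigned to either gene. A gene lies on the opposite strand of 13 of the 32 members. Among these, Cyp51, the lanosterol demethylase, overlaps Akap9 (mean count 14629), Fdft1, the squalene synthase, overlaps Ctsb (mean count 3629), Mvd, the mevalonate diphosphate decarboxylase, overlaps Gm20388 (mean count 5432), and Srebf1 overlaps Rai1 (mean count 13233). Whether the counting used strand is not spelled out in the sources used here; the name of the count table holds the letters strrev, which no label explains. Without that, the levels of these 4 genes are uncertain.

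Most of the sterol arm varied less between libraries than part of the fatty acid arm. The highest and lowest library differed by under 1 log2 unit (log2 CPM) for 10 of 16 sterol genes, 3 of 5 regulators and 3 of 11 fatty acid genes, against 43.8% of all 17455 tested genes. They differed by over 2 log2 units for 2 sterol genes, Sqle and Hsd17b7, for no regulator and for 4 fatty acid genes, Fads2, Scd1, Elovl6 and Scd2, against 24.6% of tested genes. Averaged over its members, and relative to each member's own mean, the log2 level of the sterol arm stayed between -0.16 and 0.13 in all 15 libraries. The same average of the fatty acid arm ran from -0.67 to 0.83.

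**Figure D2:**
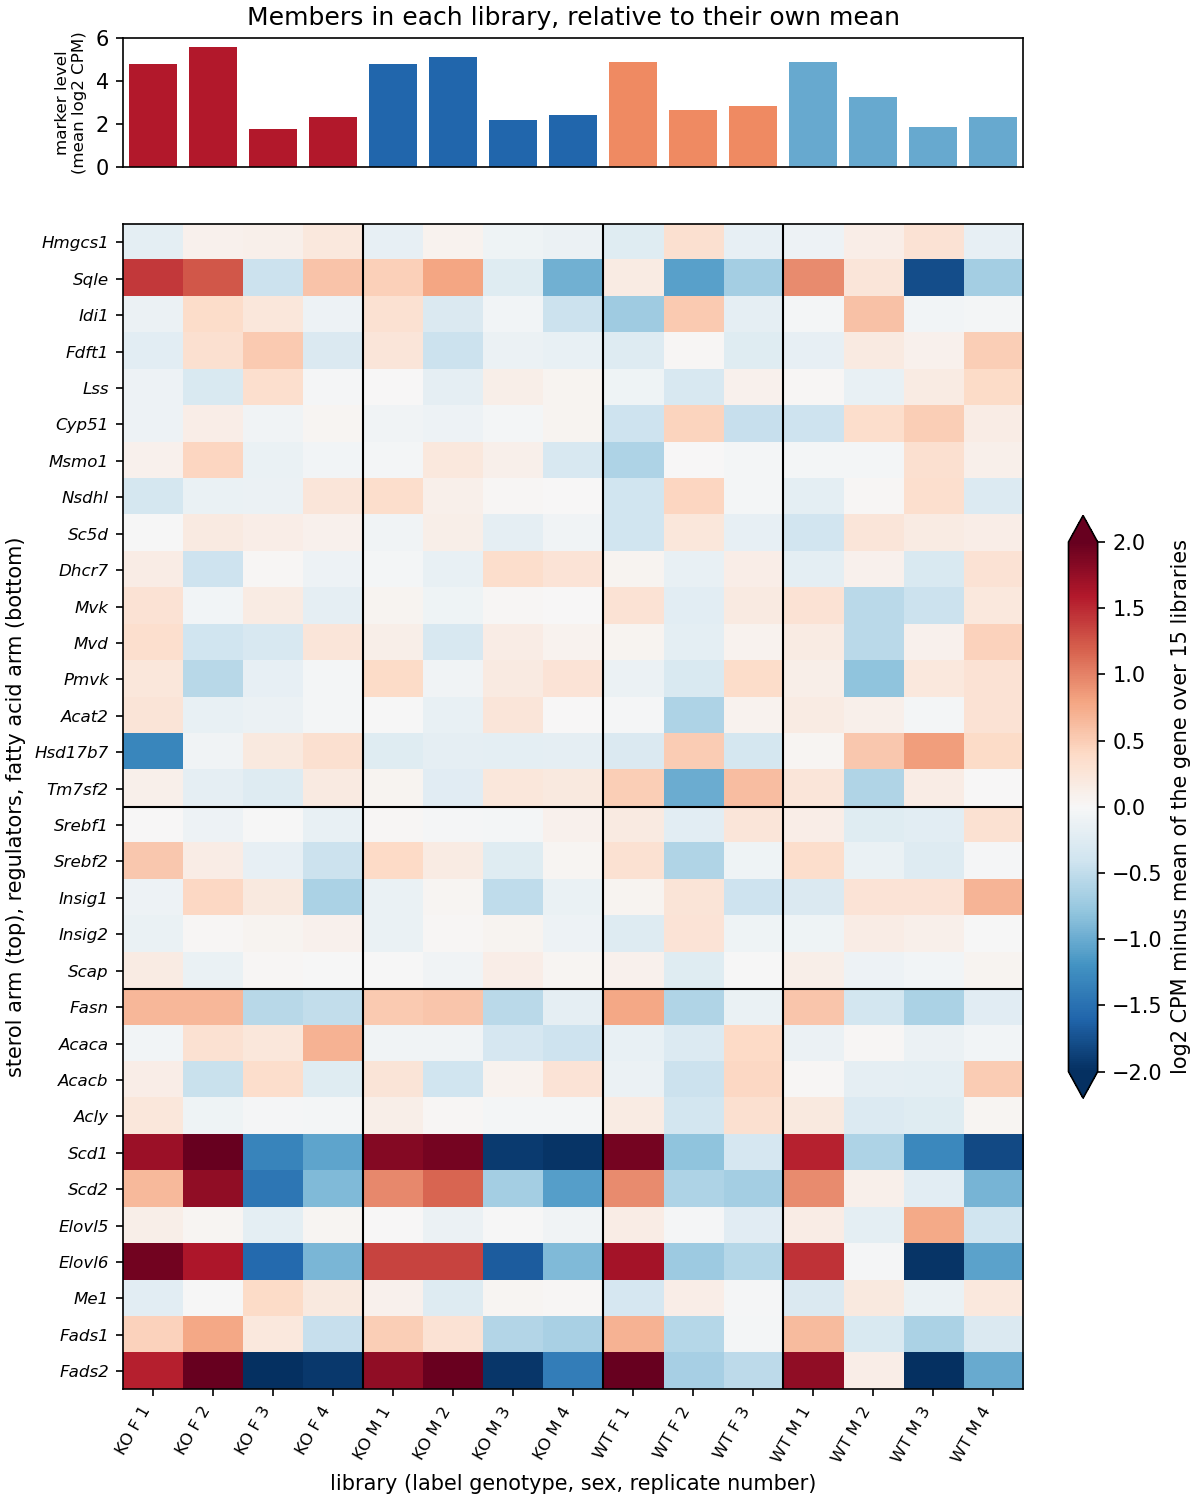
Log2 CPM of each member minus that member's mean over the 15 libraries (colour), with the marker level of each library as bars above, coloured by label group; columns run from KO-labelled females and males to WT-labelled females and males, and lines part the sterol arm, the regulators and the fatty acid arm. Scd1, Scd2, Elovl6 and Fads2 are red in the 6 libraries with the tall bars, in all 4 label groups. Fasn and Fads1 are above their means there in paler shades, and most sterol genes stay pale.

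Promoter sequences from RefSeq (GRCm38.p6) were searched for the binding motifs named for these pathways, in the 250 bases before the annotated start, and 27 of the 33 listed genes had an entry. The sterol regulatory element, TCACNCCAC, was found on either strand in 1 of 14 sterol promoters, 0 of 5 regulator promoters and 0 of 8 fatty acid promoters, against 1.04% of the 12160 tested genes with a promoter. The NF-Y box, CCAAT, was found in 12 of 14 sterol promoters, 4 of 5 regulator promoters and 3 of 8 fatty acid promoters, against 35.7% of tested genes. The E-box, CACGTG, was found in 2 of 14, 1 of 5 and 1 of 8, against 7.92%. A match is a description of letters and not a site, and the lack of a match to these exact letters does not show that no site is there. Of the fatty acid entries, those of Acaca and Acacb start 65766 and 18983 bases inside the deposited gene, and Acacb holds 1 of the NF-Y matches. Scd1, Scd2 and Fads1 have no entry, so the fatty acid counts cover only part of that arm. Sqle, Fdft1 and Fdps of the sterol arm have no entry either. The 150 bases before the start are shown for 5 enzymes whose RefSeq start lies at or before the deposited gene start, to set sterol promoters beside fatty acid promoters; capitals mark matches to these motifs. They are those of Hmgcs1 (chr13:119690201-119690350, plus strand), of the mevalonate kinase Mvk (chr5:114444119-114444268, plus strand), of Mvd (chr8:122443423-122443572, minus strand), of the fatty acid synthase Fasn (chr11:120824548-120824697, minus strand) and of the ATP citrate lyase Acly (chr11:100528001-100528150, minus strand), each printed 5′ to 3′ on the strand of its gene.
Hmgcs1: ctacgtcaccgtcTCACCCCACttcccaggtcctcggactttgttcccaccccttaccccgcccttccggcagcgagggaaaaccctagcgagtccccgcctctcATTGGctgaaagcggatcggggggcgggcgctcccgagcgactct
Mvk: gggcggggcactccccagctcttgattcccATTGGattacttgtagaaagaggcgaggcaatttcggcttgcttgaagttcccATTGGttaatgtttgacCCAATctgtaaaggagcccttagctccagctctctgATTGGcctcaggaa
Mvd: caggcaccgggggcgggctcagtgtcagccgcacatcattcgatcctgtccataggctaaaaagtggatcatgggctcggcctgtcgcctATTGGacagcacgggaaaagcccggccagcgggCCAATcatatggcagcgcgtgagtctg
Fasn: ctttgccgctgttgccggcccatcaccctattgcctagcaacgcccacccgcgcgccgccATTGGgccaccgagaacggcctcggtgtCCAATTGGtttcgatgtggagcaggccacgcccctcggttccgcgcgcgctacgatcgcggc
Acly: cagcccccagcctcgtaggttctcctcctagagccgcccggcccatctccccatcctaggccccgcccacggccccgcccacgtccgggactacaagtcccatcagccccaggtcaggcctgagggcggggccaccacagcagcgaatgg
The Hmgcs1 stretch holds the only sterol regulatory element found among the 27 promoters, 137 bases before the start, and 1 NF-Y box. The Mvk stretch holds 4 NF-Y boxes, the Mvd stretch 2 and the Fasn stretch 3, of which 2 overlap on opposite strands, and the Acly stretch holds no match to the 3 motifs.

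KO-labelled and WT-labelled libraries overlapped for every sterol gene in females, and for all but Hsd17b7 in males. No sterol gene passed the test in either sex (edgeR quasi-likelihood test on raw counts, with Benjamini-Hochberg adjustment over 17455 genes and a threshold of 0.05), and none did by DESeq2. Over all tested genes the share called was 0% in females and 0.0115% in males, so there was almost nothing to read the members against. In females even Pgr was not called, at 430 to 726 reads in KO-labelled and 0 to 7 in WT-labelled libraries. The lowest adjusted p over all tested genes there was 0.315. A member that fails this test may therefore still differ between the labels. At an unadjusted p below 0.05 stood 0 of the 32 members in females and 1 in males, against 1.74% and 1.42% of tested genes. The genes follow in the order of the pathway.

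Acat2, the cytosolic thiolase that joins acetyl-CoA units ahead of Hmgcs1, stood at 2.75, 2.06, 2.13 and 2.23 CPM in KO-labelled females and 2.28, 2.07, 2.71 and 2.32 CPM in KO-labelled males, against 2.25, 1.49 and 2.41 CPM in WT-labelled females and 2.57, 2.47, 2.24 and 2.81 CPM in WT-labelled males. All 4 groups overlapped. The log2 fold change of KO-labelled over WT-labelled libraries was 0.16 ± 0.19 (SE) in females and -0.11 ± 0.18 in males. Pmvk, the phosphomevalonate kinase, stood at 3.21, 1.86, 2.43 and 2.67 CPM in KO-labelled females and 3.55, 2.61, 3.08 and 3.30 CPM in KO-labelled males, against 2.52, 2.21 and 3.52 CPM in WT-labelled females and 2.97, 1.57, 3.16 and 3.34 CPM in WT-labelled males. Its lowest values were those of WT-labelled male replicate 2 and KO-labelled female replicate 2, and the groups overlapped, with log2 fold changes of -0.12 ± 0.27 in females and 0.18 ± 0.25 in males. Of the other enzymes up to this point, Hmgcs1 ranged from 13.1 to 19.3 CPM over the 15 libraries, Mvk from 2.40 to 4.29, Mvd from 0.901 to 1.80 and Idi1, the isopentenyl diphosphate isomerase, from 0.388 to 0.949 CPM.

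Fdft1, which joins farnesyl units into squalene, stood at 10.2, 14.7, 16.9 and 9.68 CPM in KO-labelled females and 14.02, 8.78, 10.9 and 10.6 CPM in KO-labelled males, against 9.87, 11.9 and 9.98 CPM in WT-labelled females and 10.50, 13.4, 12.5 and 16.6 CPM in WT-labelled males. KO-labelled female replicate 3 and WT-labelled male replicate 4 were highest, and each group overlapped the others. Its log2 fold change was 0.28 ± 0.22 in females and -0.26 ± 0.20 in males (unadjusted p = 0.216 in males). Sqle, the step after it and a known control point of the route, stood at 0.647, 0.572, 0.179 and 0.360 CPM in KO-labelled females and 0.336, 0.417, 0.205 and 0.124 CPM in KO-labelled males, against 0.272, 0.114 and 0.150 CPM in WT-labelled females and 0.466, 0.285, 0.0707 and 0.151 CPM in WT-labelled males. In females 3 of 4 KO-labelled libraries were above all WT-labelled ones and the fourth lay among them, and in males the groups overlapped widely. The log2 fold change of Sqle was 1.31 ± 0.66 in females (95% interval -0.10 to 2.73, unadjusted p = 0.0667, adjusted p = 1) and 0.12 ± 0.57 in males. The KO-labelled females with the highest Sqle, replicates 1 and 2, are also those with a high marker level, and a fit with that level as a term is given below.

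Lss, which closes squalene epoxide to lanosterol, stood at 9.48, 8.24, 12.8 and 10.002 CPM in KO-labelled females and 10.2, 8.95, 10.98 and 10.47 CPM in KO-labelled males, against 9.59, 8.09 and 10.7 CPM in WT-labelled females and 10.3, 9.11, 11.3 and 13.3 CPM in WT-labelled males. The groups overlapped, and the 95% interval of the log2 fold change was -0.26 to 0.45 in females and -0.45 to 0.21 in males. Msmo1, a methyl oxidase that trims lanosterol, stood at 3.54, 4.49, 3.05 and 3.22 CPM in KO-labelled females and 3.25, 3.86, 3.57 and 2.68 CPM in KO-labelled males, against 2.18, 3.36 and 3.23 CPM in WT-labelled females and 3.26, 3.25, 4.15 and 3.60 CPM in WT-labelled males. WT-labelled female replicate 1 was the lowest of the 15 libraries, and the other female libraries overlapped. For Msmo1 the log2 fold change was 0.29 ± 0.20 in females (unadjusted p = 0.170; 0.12 without that WT-labelled replicate 1) and -0.093 ± 0.18 in males. In the 9 libraries with a low marker level, which leave 2 of each label in females, the female value of Msmo1 was -0.075.

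Hsd17b7 (ENSMUSG00000026675, chr1:169949535-169969241, minus strand) was the sterol gene whose male groups did not overlap. It stood at 13.5, 31.8, 38.3 and 41.5 CPM in KO-labelled females and 28.3, 29.3, 29.2 and 29.3 CPM in KO-labelled males, against 27.2, 47.1 and 26.1 CPM in WT-labelled females and 34.1, 48.4, 59.6 and 43.3 CPM in WT-labelled males. The 4 KO-labelled males lay close together below all 4 WT-labelled males, while in females both the lowest library of all, KO-labelled replicate 1, and 2 of the higher ones were KO-labelled. Its log2 fold change was -0.67 ± 0.29 in males (95% interval -1.30 to -0.047, unadjusted p = 0.0370, adjusted p = 0.999) and -0.10 ± 0.31 in females. It was the only member whose male label groups did not overlap, against 1.6% of tested genes, so 1 of 32 is near that background; no member separated in females, against 1.92%. The remaining late enzymes were Cyp51 at 5.92 to 11.5 CPM over the 15 libraries, Tm7sf2 at 0.725 to 2.20, the decarboxylating dehydrogenase Nsdhl at 3.22 to 5.72, the lathosterol oxidase Sc5d at 4.78 to 7.45 and Dhcr7, which makes cholesterol in the last step, at 4.97 to 8.45 CPM. Together with Hmgcs1, Mvk, Mvd and Idi1, they had log2 fold changes between -0.23 and 0.19 in females and between -0.23 and 0.14 in males.

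Across the sterol arm the median log2 fold change was 0.076 in females, with 10 of 16 genes positive. In males it was -0.10, with 6 of 16 positive. Over all tested genes the medians were 0.025 and 0.018, with 55.4% and 53.0% of genes positive. For 15 of 16 sterol genes in females and 14 of 16 in males the 95% interval lay within 1 log2 unit of 0, which leaves changes above 2-fold outside it; over all tested genes the share was 65.2% in females and 69.0% in males. Sqle in both sexes and Hsd17b7 in males were the exceptions.

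No regulator passed the test between the labels. Srebf1, whose product SREBP-1 mainly drives fatty acid synthesis, stood at 23.8, 22.1, 23.7 and 21.4 CPM in KO-labelled females and 23.997, 23.4, 23.03 and 25.1 CPM in KO-labelled males, against 26.8, 20.4 and 28.03 CPM in WT-labelled females and 26.05, 20.1, 20.5 and 29.3 CPM in WT-labelled males. Every KO-labelled library lay inside the range of the WT-labelled ones of its sex. Its log2 fold change was -0.14 ± 0.14 in females (unadjusted p = 0.339) and -0.0060 ± 0.13 in males. Srebf2, whose product SREBP-2 mainly drives cholesterol synthesis, stood at 22.4, 16.99, 13.7 and 11.5 CPM in KO-labelled females and 20.4, 17.3, 13.1 and 15.8 CPM in KO-labelled males, against 19.1, 10.2 and 14.46 CPM in WT-labelled females and 19.7, 14.04, 12.9 and 15.1 CPM in WT-labelled males. In each group the highest library was one with a high marker level, and the log2 fold change was 0.15 ± 0.25 in females and 0.11 ± 0.23 in males.

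Insig1, which is itself an SREBP target, stood at 5.38, 7.68, 6.58 and 3.71 CPM in KO-labelled females and 5.27, 5.93, 4.04 and 5.27 CPM in KO-labelled males, against 5.98, 6.87 and 4.30 CPM in WT-labelled females and 4.70, 6.95, 6.93 and 9.23 CPM in WT-labelled males. KO-labelled males reached from below to inside the range of the WT-labelled males, and the log2 fold change was -0.44 ± 0.24 in males (unadjusted p = 0.0933, adjusted p = 0.999) and 0.032 ± 0.26 in females. Insig2, its paralogue, stood at 22.9, 25.4, 25.9 and 26.5 CPM in KO-labelled females and 22.8, 25.4, 26.04 and 23.1 CPM in KO-labelled males, against 20.9, 30.1 and 23.6 CPM in WT-labelled females and 23.6, 27.6, 26.8 and 24.8 CPM in WT-labelled males. It was among the steadiest members, with a log2 range of 0.52 over the 15 libraries and log2 fold changes of 0.018 ± 0.12 in females and -0.077 ± 0.11 in males. Scap, the escort, had the smallest range of all members, 0.41 log2 units, at 17.1 to 22.6 CPM. All 5 regulators had 95% intervals within 1 log2 unit of 0 in both sexes.

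The fatty acid arm held no gene that passed the test between the labels either. Acaca, whose cytosolic product makes malonyl-CoA for chain building, stood at 54.7, 70.1, 66.2 and 91.5 CPM in KO-labelled females and 53.7, 53.9, 44.9 and 42.2 CPM in KO-labelled males, against 51.04, 46.8 and 74.1 CPM in WT-labelled females and 51.9, 57.4, 52.2 and 54.3 CPM in WT-labelled males. Between the labels its log2 fold change was 0.30 ± 0.18 in females (unadjusted p = 0.118) and -0.15 ± 0.17 in males, with overlapping groups in both. In females it was 0.15 without KO-labelled replicate 4 and 0.53 without WT-labelled replicate 3. Acacb, its mitochondrial counterpart, stood at 416, 278, 484 and 320.1 CPM in KO-labelled females and 453, 288, 399 and 457 CPM in KO-labelled males, against 349, 281 and 508 CPM in WT-labelled females and 384, 334, 332 and 539.9 CPM in WT-labelled males. All groups covered about the same range, and the 95% interval of its log2 fold change was -0.56 to 0.53 in females and -0.50 to 0.51 in males.

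Acly, which frees cytosolic acetyl-CoA from citrate, stood at 36.000000, 28.9, 30.3 and 29.99 CPM in KO-labelled females and 33.3, 31.1, 29.8 and 29.95 CPM in KO-labelled males, against 34.5, 23.8 and 38.1 CPM in WT-labelled females and 35.03, 25.5, 25.98 and 31.5 CPM in WT-labelled males. Its log2 fold change was -0.038 ± 0.16 in females and 0.074 ± 0.15 in males, and the groups overlapped. Me1, the malic enzyme that supplies NADPH, stood at 77.1, 88.8, 117 and 102 CPM in KO-labelled females and 94.5, 74.7, 91.5 and 91.2 CPM in KO-labelled males, against 71.1, 98.1 and 87.6 CPM in WT-labelled females and 73.5, 103, 81.2 and 103 CPM in WT-labelled males. KO-labelled female replicate 3 was the highest library and WT-labelled female replicate 1 the lowest, and the log2 fold change was 0.17 ± 0.17 in females (unadjusted p = 0.333; 0.042 without that KO-labelled replicate 3) and -0.036 ± 0.16 in males. Elovl5, an elongase of polyunsaturated chains, stood at 38.1, 35.9, 30.5 and 35.8 CPM in KO-labelled females and 35.02, 32.4, 34.8 and 33.4 CPM in KO-labelled males, against 38.7, 34.3 and 29.9 CPM in WT-labelled females and 38.8, 30.7, 59.2 and 26.5 CPM in WT-labelled males. WT-labelled male replicate 3 stood above all others; with it the male log2 fold change was -0.19 ± 0.20, and without it 0.076.

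Scd1 and Scd2, the stearoyl-CoA desaturases that make monounsaturated chains, differed far more within groups than between them. Scd1 stood at 5.48, 7.60, 0.666 and 0.805 CPM in KO-labelled females and 5.94, 6.26, 0.441 and 0.430 CPM in KO-labelled males, against 6.25, 0.954 and 1.32 CPM in WT-labelled females and 4.87, 1.09, 0.684 and 0.475 CPM in WT-labelled males. Scd2 stood at 10.3, 22.4, 2.41 and 3.54 CPM in KO-labelled females and 12.7, 14.6, 4.06 and 3.02 CPM in KO-labelled males, against 12.5, 4.24 and 4.08 CPM in WT-labelled females and 12.6, 6.996, 5.64 and 3.43 CPM in WT-labelled males. Both genes were high in the 6 libraries with a high marker level, of which every group holds at least 1. For Scd1 the log2 fold change had a 95% interval of -2.27 to 3.01 in females and -1.57 to 3.30 in males, and that of Scd2 -1.25 to 2.20 and -1.32 to 1.84, so changes of several fold in either direction lie inside these intervals. Elovl6, Fads2, Fads1 and Fasn had the same pattern and are given with the marker level below; the interval of Elovl6 was -1.90 to 2.70 in females and that of Fads2 -2.67 to 3.02.

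Over all tested genes the median log2 fold changes were 0.025 in females and 0.018 in males, with 55.4% and 53.0% of genes positive. The 11 fatty acid genes had a median of 0.17 in females, with 9 positive, and of 0.074 in males, with 8 positive. With 1 library left out at a time, these medians took either sign: -0.064 to 0.54 in females (lowest without WT-labelled female replicate 2, highest without replicate 1) and -0.0028 to 0.37 in males (lowest without KO-labelled male replicate 2, highest without WT-labelled male replicate 1). With the marker level as a term, in the fit described below, they were 0.030 in females and -0.12 in males. The 95% interval lay within 1 log2 unit of 0 for 6 of 11 in each sex.

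**Figure D3:**
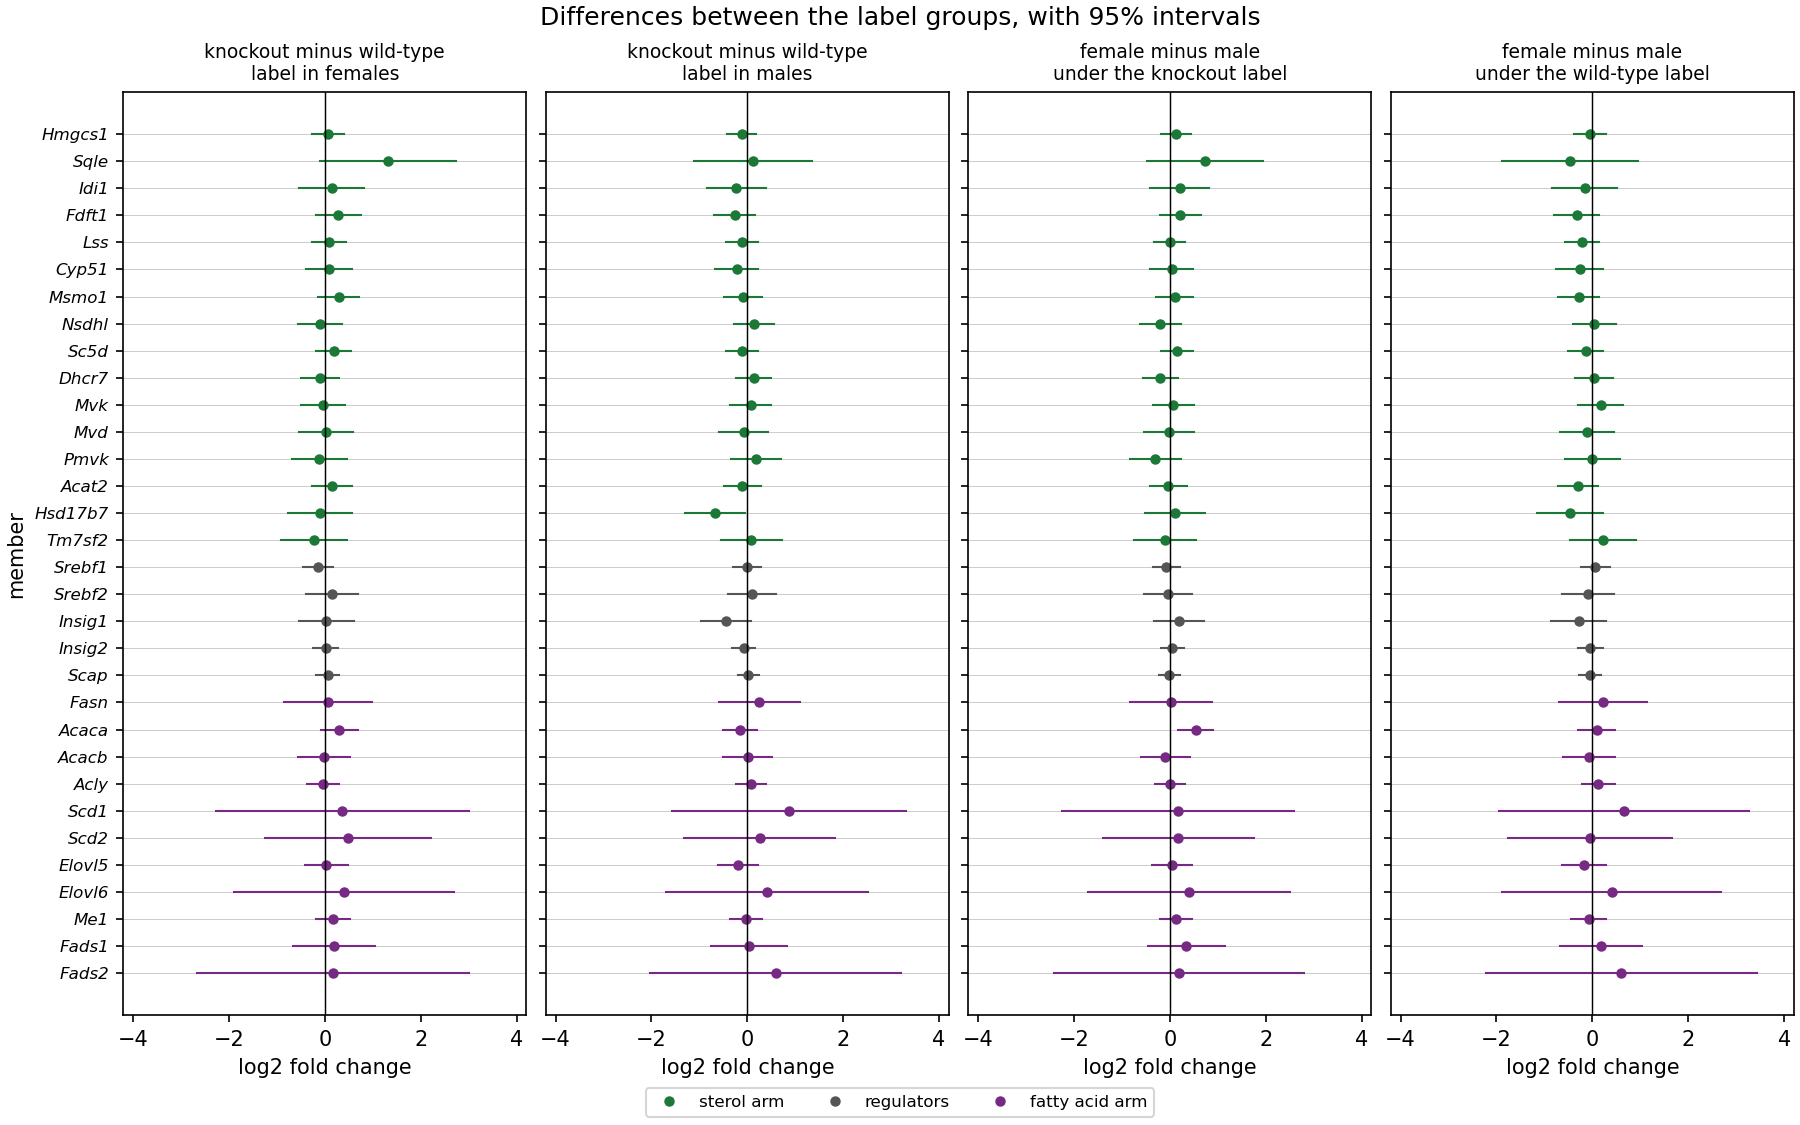
Log2 fold change of each member with its 95% interval (edgeR), for KO-labelled over WT-labelled libraries in females and in males and for females over males under each label; green marks the sterol arm, grey the regulators and purple the fatty acid arm. Most sterol genes and regulators have short intervals around 0, while Scd1, Scd2, Elovl6 and Fads2 have intervals several log2 units wide.

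The series asks about control by the receptor that differs between the sexes, which is the difference between the label effects in females and in males. No member passed that test, against 0% of tested genes, and none had an unadjusted p below 0.05, against 2.49% of tested genes. The smallest p-values in the arms were those of Acaca, with a difference of 0.45 ± 0.25 log2 units (unadjusted p = 0.0883), and of Fdft1, with 0.54 ± 0.30 (unadjusted p = 0.0904). Msmo1 had 0.38 ± 0.27, Insig1 0.47 ± 0.36 and Me1 0.20 ± 0.23 log2 units. The median over the sterol arm was 0.24, with 11 of 16 genes positive, and over the fatty acid arm -0.0080. Over all tested genes it was 0.019, with 52.2% of genes positive. When each library was left out, the sterol median lay at 0.15 to 0.26. The fatty acid median then lay at -0.20 to 0.37 (lowest without WT-labelled female replicate 2, highest without replicate 1). Intervals of these differences were wide: 19 of 32 lay within 1 log2 unit of 0.

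Averaged over both sexes, the label effect passed the test for no member, against 0.0172% of tested genes, and no member had an unadjusted p below 0.05, against 1.28% of tested genes. Hsd17b7 had the smallest p, with -0.39 ± 0.21 log2 units (unadjusted p = 0.0930). Sqle had 0.72 ± 0.43 and Insig1 -0.20 ± 0.18 log2 units. Scd1 had 0.61 ± 0.83 and Scd2 0.37 ± 0.54; both changed sign, to -0.061 and -0.12, once the marker level was a term of the fit.

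Females and males of the same label differed in no member by the test. Under the KO label the share called was 0.0229% of tested genes, and under the WT label 0%. At an unadjusted p below 0.05 stood 1 member under the KO label, against 6.37% of tested genes, and none under the WT label, against 2.09%. The member was Acaca, whose 4 KO-labelled females, at 54.7, 70.1, 66.2 and 91.5 CPM, lay above the 4 KO-labelled males, at 53.7, 53.9, 44.9 and 42.2 CPM. The lowest female and the highest male differed by only about 1 CPM. Females over males, its log2 fold change was 0.54 ± 0.17 (unadjusted p = 0.00620, adjusted p = 0.757) under the KO label and 0.088 ± 0.18 under the WT label. Acaca was the only member whose KO-labelled sexes did not overlap, against 3.18% of tested genes; no member separated WT-labelled females from males, against 2.95%.

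Among the other members Sqle had a female over male log2 fold change of 0.73 ± 0.56 under the KO label and -0.47 ± 0.66 under the WT label. Pmvk had -0.30 ± 0.25 and Fads1, the desaturase encoded beside Fads2, 0.35 ± 0.37 under the KO label. Under the WT label Hsd17b7 had -0.47 ± 0.32, Acat2 -0.30 ± 0.19, Insig1 -0.29 ± 0.27, Elovl5 -0.18 ± 0.21 and Acly 0.12 ± 0.16. The sterol arm median was 0.057 under the KO label, with 9 of 16 genes higher in females, and -0.15 under the WT label, with 4 of 16 higher in females. That of the fatty acid arm was 0.17, with 10 of 11 higher, and 0.12, with 7 of 11 higher. Over all tested genes the medians were 0.015 and -0.0032, with 52.0% and 49.3% of genes higher in females. With 1 library left out at a time, the fatty acid medians took either sign, at -0.0073 to 0.47 and -0.26 to 0.38. With the marker level as a term, in the fit described below, they were 0.049 and 0.067. All these comparisons are drawn from the same 15 libraries, and the averages, differences and sex comparisons share samples with the label comparisons above.

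Part of the fatty acid arm was higher in the 6 libraries with a high marker level, in all 4 label groups: desaturases, Elovl6 and Fasn. Its most abundant gene, Acacb, was not, and neither were most sterol genes. Fads2 stood at 2.85, 5.41, 0.205 and 0.254 CPM in KO-labelled females and 3.33, 3.81, 0.252 and 0.372 CPM in KO-labelled males, against 4.58, 0.611 and 0.677 CPM in WT-labelled females and 3.32, 1.07, 0.212 and 0.486 CPM in WT-labelled males. Elovl6 stood at 4.57, 3.69, 0.410 and 0.636 CPM in KO-labelled females and 3.07, 3.06, 0.378 and 0.649 CPM in KO-labelled males, against 3.81, 0.725 and 0.808 CPM in WT-labelled females and 3.26, 1.19, 0.307 and 0.572 CPM in WT-labelled males. In both genes, as in Scd1 above, the 6 libraries with a high marker level stood above the other 9, and WT-labelled male replicate 2, which has the highest marker level of the 9, was also the highest of them for Fads2 and Elovl6. Fads1 stood at 7.64, 9.51, 6.40 and 4.03 CPM in KO-labelled females and 7.77, 6.76, 3.68 and 3.56 CPM in KO-labelled males, against 8.97, 3.74 and 5.40 CPM in WT-labelled females and 8.64, 4.48, 3.56 and 4.55 CPM in WT-labelled males. Fasn, which builds the saturated chain, stood at 13.6, 13.7, 5.84 and 6.10 CPM in KO-labelled females and 12.4, 12.6, 5.92 and 7.62 CPM in KO-labelled males, against 14.7, 5.65 and 7.82 CPM in WT-labelled females and 12.6, 6.69, 5.56 and 7.38 CPM in WT-labelled males. For Fads1 and Fasn the step between the 2 sets of libraries was smaller.

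The 6 libraries lay above the 9 without overlap for 7 of 32 members, against 13.6% of all tested genes, and below them for none. These were Fads2 (2.85 to 5.41 CPM in the 6 and 0.205 to 1.07 CPM in the 9), Scd1 (4.87 to 7.60 and 0.430 to 1.32), Elovl6 (3.06 to 4.57 and 0.307 to 1.19), Scd2 (10.3 to 22.4 and 2.41 to 6.996), Fasn (12.4 to 14.7 and 5.56 to 7.82), Fads1 (6.76 to 9.51 and 3.56 to 6.40) and Srebf2 (16.99 to 22.4 and 10.2 to 15.8). With 7 of 32 the share of all members was not far from that of tested genes, but it was uneven between the arms: they are 6 of 11 fatty acid genes, 1 of 5 regulators and 0 of 16 sterol genes. The division into 6 and 9, a marker level of 4, was drawn after the levels were seen. Acacb, Acaca, Acly, Me1 and Elovl5, also of the fatty acid arm, overlapped, with Acacb at 278 to 453 CPM in the 6 and 281 to 539.9 CPM in the 9. The average log2 level of the fatty acid arm, relative to each gene's mean, was 0.57 to 0.83 in the 6 libraries and -0.67 to -0.13 in the 9; that of the sterol arm was -0.16 to 0.078 and -0.076 to 0.13.

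The endothelial, fibroblast and mural lists define the marker level that divides the libraries, so their separation is fixed by that choice and is given only to show its size. All 8 endothelial markers were higher in the 6 libraries without overlap, with summed levels of 187 to 356 CPM in the 6 and 14.2 to 44.04 CPM in the 9, and so were all 8 fibroblast markers, at 712 to 1894 and 56.3 to 245 CPM. Of 7 mural markers 4 were higher and 1, Abcc9, which cardiac muscle also expresses, was lower, with sums of 526 to 639 and 579 to 774 CPM. Among 7 leukocyte markers 1 did not overlap, and Ms4a1 was at 0 in 3 libraries; their sums were 23.7 to 68.1 and 5.82 to 22.96 CPM. The 6 adipocyte markers, Adipoq and Plin1 among them, summed to 1.03 to 2.56 and 0.0768 to 0.194 CPM; 5 did not overlap, and each of the 6 was at 0 in at least 1 library. Of 4 Schwann cell markers, among which Sox10 was at 0 in 4 libraries, 1 was higher without overlap; they summed to 6.52 to 9.83 and 8.46 to 10.4 CPM and the 8 cardiomyocyte markers to 43692 to 70045 and 57299 to 74047 CPM. Every endothelial, fibroblast, mural and cardiomyocyte marker was above 0 in all 15 libraries. The part of these cells in the levels of the members was not tested.

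**Figure D4:**
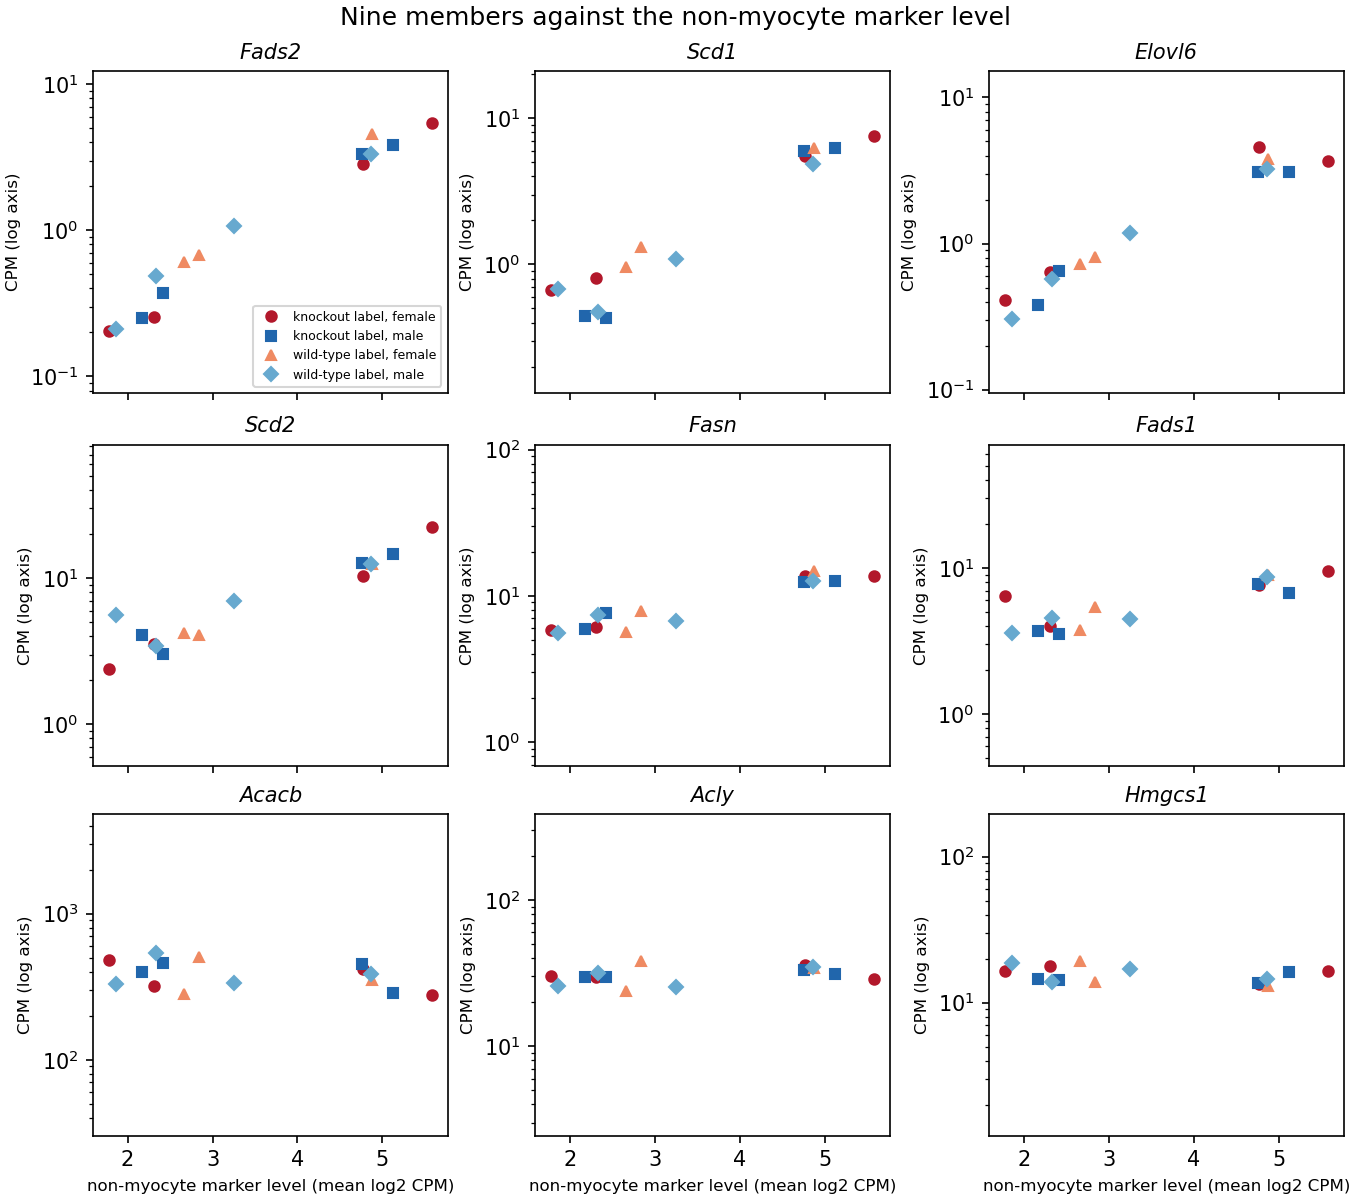
CPM of 9 members (log axis, the same span in each panel) against the marker level of the library, the mean log2 CPM of endothelial, fibroblast and mural markers; symbols show the label groups. Fads2, Scd1 and Elovl6 are at 2.85 CPM or more in the 6 libraries with a high marker level and at 1.32 CPM or less in the other 9, Scd2, Fasn and Fads1 have smaller steps, and the slopes of Acacb, Acly and Hmgcs1 did not pass the test.

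A fit with the label groups and the marker level as terms gave each gene a slope, the change in log2 level per unit of marker level. The slope was positive and passed the test for 8 of 32 members, against 20.6% of tested genes, and negative for 1, against 8.32%, so the count over all members is near the background. By arm, 6 of 11 fatty acid genes, 1 of 5 regulators and 1 of 16 sterol genes had a positive slope that passed. By sign alone, 8 of 11, 4 of 5 and 5 of 16 slopes were positive, against 44.4% of tested genes. Fads2 had the steepest, 1.28 ± 0.051 (SE, adjusted p = 1.6e-11), with Scd1 at 1.15 ± 0.074 (adjusted p = 2.6e-09) and Elovl6 at 0.99 ± 0.066 (adjusted p = 4.4e-09). Scd2 followed at 0.70 ± 0.060, Fasn at 0.38 ± 0.040, Fads1 at 0.32 ± 0.052 and Srebf2 at 0.18 ± 0.043 (adjusted p = 7.7e-08 for Scd2, 1.1e-06 for Fasn, 1.2e-04 for Fads1 and 0.00344 for Srebf2). Sqle was the sterol gene with a positive slope that passed, 0.48 ± 0.088 (adjusted p = 4.6e-04). The negative slope that passed was that of Me1, -0.10 ± 0.035 (adjusted p = 0.0391). Hsd17b7 at -0.15 ± 0.067 and Lss at -0.086 ± 0.038 also had low slopes and did not pass (adjusted p = 0.102 for Hsd17b7 and 0.105 for Lss). The median slope was 0.32 over the fatty acid arm and -0.042 over the sterol arm, against -0.017 over all tested genes.

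With the replicate number as a block the calls of Sqle (0.35, adjusted p = 0.312), Srebf2 (0.21, adjusted p = 0.0530) and Me1 (-0.16, adjusted p = 0.136) were lost. Within the 9 libraries with a low marker level, a choice made after the data were seen that leaves fewer samples and a narrower span, none of the 32 slopes passed the test, with Fads2 at 1.46 (adjusted p = 0.107) and Elovl6 at 1.36 (adjusted p = 0.0860). There the slope was 1.20 for Sqle, 0.61 for Scd1, 0.34 for Scd2, 0.21 for Fasn, 0.066 for Srebf2, 0.049 for Fads1 and 0.12 for Me1. The slope of Me1 also lost its call when any 1 of 7 libraries was left out (replicates 1, 3 and 4 of KO-labelled females, 2 and 3 of KO-labelled males and 1 of each WT-labelled group).

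With the marker level as a term, no member passed the test in the 6 comparisons of the label groups either. The shares of tested genes called were then 0.00573% for the label in females, 0.0115% for the label in males, 0% for their difference, 0.0229% for their average, 0.0802% for sex under the KO label and 0.00573% for sex under the WT label. The largest SE of a member for the label in females was 0.39 log2 units in that fit, against 1.31 without the term. At an unadjusted p below 0.05 stood 2 members for the label in females, 1 for the label in males, 1 for their difference, 1 for their average, 2 for sex under the KO label and 0 for sex under the WT label. The shares of tested genes at that level were 3%, 3.83%, 4.73%, 2.58%, 11.2% and 3.81% in the same order. Fads2 then had -0.57 ± 0.20 log2 units between the labels in females (unadjusted p = 0.0116) and -0.43 ± 0.14 on average over the sexes (unadjusted p = 0.00637). Without the term these estimates had the opposite sign, 0.17 ± 1.31 in females and 0.38 ± 0.90 on average. With the term, Sqle had 1.14 ± 0.39 in females (unadjusted p = 0.0105), 1.23 ± 0.51 for the difference of the label effects (unadjusted p = 0.0279) and 0.70 ± 0.31 for females over males under the KO label (unadjusted p = 0.0373). Acaca had 0.53 ± 0.16 in that last comparison (unadjusted p = 0.00525, adjusted p = 0.311) and Hsd17b7 -0.56 ± 0.25 in males (unadjusted p = 0.0375).

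The other genes of the pathway, 27 that cover further sterol steps, SREBP processing, oxysterol sensing and export, cholesterol handling and lipogenesis, were all tested, and none passed in the 6 comparisons of the label groups. Dgat2, which makes triglyceride, stood at 67.6, 60.9, 64.5 and 70.6 CPM in KO-labelled males and 100.9, 90.8, 78.3 and 144 CPM in WT-labelled males. The male groups did not overlap, against 1.6% of tested genes, and the log2 fold change was -0.65 ± 0.22 (unadjusted p = 0.0107, adjusted p = 0.999). Dgat2, Abca1 and Lbr are named because their unadjusted p was the smallest of the 27 over these comparisons. Genes picked in that way tend to separate, so the lack of overlap adds no support. Abca1, the cholesterol exporter that LXR receptors induce, stood at 102, 75.5 and 84.8 CPM in WT-labelled females and 118, 144, 133 and 133 CPM in WT-labelled males. These groups did not overlap, against 2.95% of tested genes, and the log2 fold change was -0.59 ± 0.24 (unadjusted p = 0.0285). Lbr, a sterol reductase that also anchors chromatin at the nuclear envelope, stood at 18.1, 25.3, 18.5 and 17.3 CPM in KO-labelled females and 18.3, 17.2, 13.9 and 14.53 CPM in KO-labelled males, with a log2 fold change of 0.31 ± 0.13 (unadjusted p = 0.0339). On the marker level 9 of the 27 had a positive slope that passed and 2 a negative one, Osbp and Acss2, against 20.6% and 8.32% of tested genes. Soat1, which esterifies cholesterol for storage, had the smallest p of them, with a slope of 1.20 ± 0.048 (adjusted p = 1.6e-11), named here after its value was seen.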

How the data were processed

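RNA-seq of nuclear RNA gave 15 mouse libraries. STAR 2.5.3a, featureCounts 1.5.0 and the build GRCm38 (mm10) are named in the submitters' processing notes, and the authors deposited raw counts per gene without normalisation. The length column equals end minus start plus 1 in 100% of the genes, so counts cover gene bodies. The smaller of the 2 deposited tables holds genes with a mean count of at least 10; tests used the larger one (55536 genes). Start and end of the 33 listed genes equal those of GENCODE M21.

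In R 4.3.3, filterByExpr of edgeR 4.0.16 left 17455 genes, with TMM scaling of library sizes. One quasi-likelihood fit (glmQLFit, robust) had 1 mean per label group and 11 residual degrees of freedom, or 10 with the marker level as a term. P-values are Benjamini-Hochberg adjusted over all tested genes; SEs come from the estimate and its F statistic. The marker level used log2 CPM with a prior count of 2. Alternatives were DESeq2 1.42.0, other scaling and filters, a replicate block, the marker level as a term, omission of the 3 libraries that held reads of the other sex, leaving out each library, and, chosen after the data were seen, the 9 libraries with a low marker level. The tests were checked on simulated counts, drawn with the spread between libraries from the fit that has the marker level as a term. That spread is smaller than in the fit without it (common dispersion 0.038 against 0.163). The check therefore does not cover the label tests at their actual spread.

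The members and lists were chosen with earlier results of these data known. By rule, values in every library are given for members with the smallest p of each arm in each comparison, the 3 highest and 3 lowest slopes, and paralogue pairs; of other pathway genes, the 3 with the smallest p are named. Same-numbered libraries had correlated deviations from their group means between sexes (0.50 to 0.83 under the KO label, 0.18 to 0.84 under the WT label) and between male label groups (0.17 to 0.70), and counted as pairs there, but not between female label groups (-0.41 to 0.71). The pairing comes from the replicate numbers in the titles. Libraries of different number but like marker level correlated about as strongly (0.52 to 0.75 between the KO-labelled sexes), so the correlations do not single out the numbers. Total counts were 24.4 to 139.4 M; the count of 3 given as a floor covers counting error only.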

Additional observations from a re-analysis of the deposited data

Results flagged for a closer look

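In 4 of 96 checks of a member in a group of 4 libraries, 1 library stood far from the others by Dixon's ratio; chance alone flags about 1 in 20. Me1 had 74.7 CPM in KO-labelled male replicate 2, below the next value of 91.2 CPM. Hsd17b7 had 28.3 CPM in KO-labelled male replicate 1, next to 29.2 CPM in a group whose 4 values lie within about 1 CPM. Scd1 had 4.87 CPM in WT-labelled male replicate 1, the library of that group with a high marker level, against 1.09 CPM in the next. Idi1 had 0.949 CPM in WT-labelled male replicate 2, which also held Xist reads, against 0.616 CPM in the next.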

How the results depend on the processing

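In the 6 comparisons of the label groups the count of members called stayed at 0 under every alternative run, and fitting the replicate number as a block, where same-numbered libraries counted as pairs, left it at 0 too. With the replicate block 7 slopes on the marker level passed in place of 9: Sqle (0.35, adjusted p = 0.312), Srebf2 (0.21, 0.0530) and Me1 (-0.16, 0.136) lost their calls and Tm7sf2 gained one. DESeq2 called 10 slopes, Lss among them (adjusted p = 0.0280), and leaving out each library 8 to 10. Without a filter on low counts Me1 was not called (adjusted p = 0.0503). In the 9 libraries with a low marker level, an alternative chosen after seeing the data, 0 slopes passed, that of Me1 was 0.12, and Msmo1 in females was -0.075.

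The averaged label effect reversed for Scd1 and Scd2, to -0.061 and -0.12 with the marker level as a term, -0.00105 and -0.18 when the 3 libraries that held reads of the other sex were omitted, and -0.70 and -0.54 in the 9 libraries. The sterol arm median of the label effect in females was 0.19 without those 3 and 0.014 in the 9, and that of the difference between the sexes 0.32 without the 3. Leaving out each library gave 0.0095 to 0.17 for the sterol median in females, 0.15 to 0.26 for that of the difference, -0.22 to -0.063 for that of females over males under the WT label, -0.064 to 0.54, -0.0028 to 0.37 and -0.20 to 0.37 for the fatty acid medians in females, in males and of the difference, -0.048 to 0.74 for Scd2 averaged (lowest without KO-labelled female replicate 2), -0.34 to 0.076 for Elovl5 in males (highest without WT-labelled male replicate 3), and -0.31 to 0.11 and -0.020 to 0.30 for Elovl5 and Acly between the sexes under the WT label (sign changed without WT-labelled male replicate 3 for Elovl5 and without WT-labelled female replicate 3 for Acly). For females over males the fatty acid median ran from -0.0073 to 0.47 under the KO label and from -0.26 to 0.38 under the WT label. The cause of these moves was not tested. Low counts limit Sqle and Idi1, and the spread between libraries limits Scd1, Scd2, Elovl6 and Fads2.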
